A study of Mus musculus with 18 samples.

Results

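Undifferentiated mouse embryonic stem cells (ESC) were compared with RNA from adult mouse tissue on 1 array product, UniSet Mouse 20K I. The 4 arrays were chosen by their labels, 2 that carry the ESC sample of that product and 2 that carry an adult sample each, out of 18 arrays in the series. The series followed ESC as they were left to differentiate into embryoid bodies (EB), floating cell aggregates that were collected on days 3 and 7. The product also carried 8 EB arrays from 4 EB samples, which entered the fit to add to the estimate of the spread and are given below as reference levels. A further ESC sample, replicate 2, was measured on 2 arrays of another product and served to check which genes could be detected in ESC.

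The ESC belong to the line MES3, which was derived from a C57BLxCBA mouse blastocyst cultured whole, so all ESC and EB values rest on 1 line. They were grown on mouse embryonic fibroblasts (MEF) that had been inactivated with Mitomicin C, in knock-out DMEM with FBS and the cytokine LIF, and feeder RNA can therefore be part of each ESC sample. The EB were grown from excised colony pieces on low-adhesion plates in that medium without LIF and b-mercaptoethanol. The 2 adult samples carry the titles UNI-1 and UNI-2 and are described only as adult tissue cells; their organ, strain, sex and number of animals are not given in the sources used here. The protocol text attached to them is the one written for ESC cultures. The 2 ESC arrays were read as repeat arrays of 1 sample, which the labels do not spell out, so the comparison rests on 1 ESC sample and 2 adult samples.

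ESC are held in the pluripotent state by a small circuit of transcription factors, with Pou5f1 (Oct4) at its centre, and they divide rapidly with a very short pause between mitosis and the next round of DNA replication. Most cells of adult organs have left the cell cycle and instead make large amounts of a few specialised products, such as surfactant in lung, protamines in sperm or plasma proteins in liver. In bulk RNA a lower level can come from fewer cells of a type or from less RNA per cell, which cannot be told apart here.

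The adult arrays were brighter than the ESC arrays. The scanner's quality marks put 31.0 and 32.6% of the ESC arrays' gene probes above background, against 57.9 and 52.9% for the adult arrays. The median gene probe was 2.06 and 2.50 times the median negative control on the ESC arrays and 10.9 and 7.26 times on the adult arrays. The EB arrays of the product lay with the ESC arrays, between 27.8 and 36.4% above background. ESC replicate 2 on the other product reached 67.0 and 60.9%, which is not comparable across products. The adult exports listed 19799 gene probes each, against 19758 in the ESC and EB exports of the product. The exports thus differ between the groups, and export set and group cannot be told apart.

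**Figure D1:**
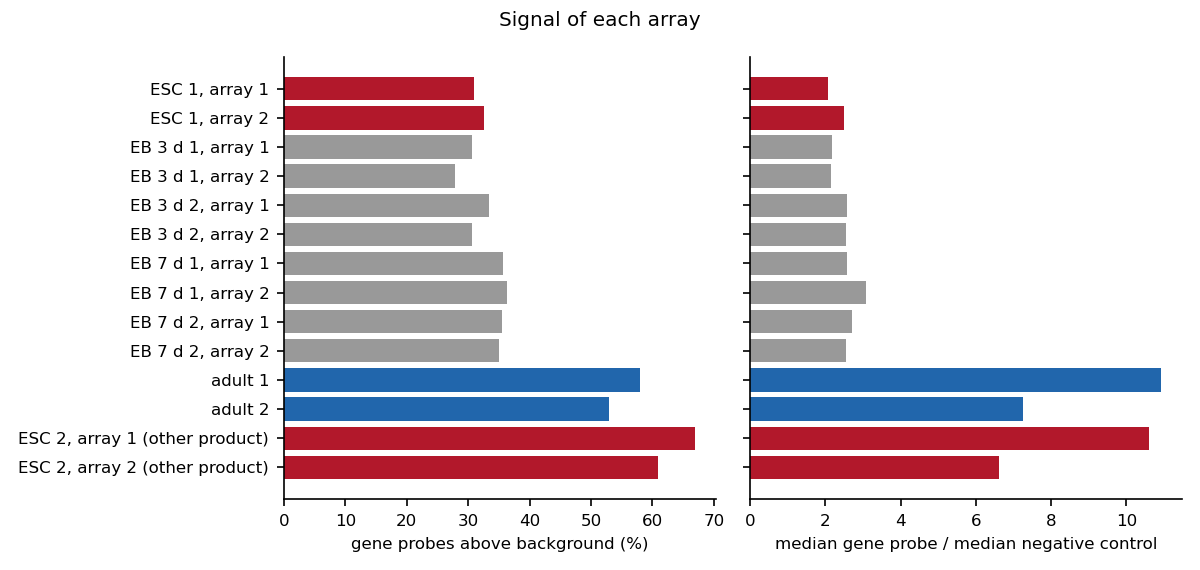
Share of gene probes above background (left, %) and the ratio of the median gene probe to the median negative control (right) for each array, with ESC in red, EB in grey and adult samples in blue. The 2 adult arrays stand at 57.9 and 52.9%, above the ESC and EB arrays of the same product, and ESC replicate 2 on the other product stands at 67.0 and 60.9%.

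Levels below are log2 normalized intensities, and a difference is ESC minus adult on that scale with its standard error (SE) from limma, for 1 ESC sample on 2 arrays and 2 adult samples. A gene was tested when it lay above background on both ESC arrays or on both adult arrays. Across the 9840 genes tested, the ESC arrays correlated with each other at r = 0.961 and the adult arrays at 0.965, while ESC and adult arrays correlated at 0.474 to 0.488. These values are across genes, which are no independent replicates, and only describe the arrays. The 2 ESC arrays lay at least 2-fold apart for 951 genes and the 2 adult arrays for 416, whereas the ESC and adult means lay at least 2-fold apart for 5267.

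More of the genes tested passed than did not: 5063 of 9840 at an adjusted p under 0.05 (51.5%). Of these 2375 were higher in ESC (24.1%) and 2688 were lower (27.3%), and at an unadjusted p under 0.05 there were 5747. The 2 ESC arrays lay above both adult arrays for 2375 of the 2375 higher genes, and below both for 2674 of the 2688 lower ones. Over all 9840 genes tested the groups did not overlap for 8005 (81.4%), and 2956 of these did not pass. Such separation was therefore common and adds no support to the calls. The shares called higher and lower depend on how the arrays are scaled to each other. With arrays centred on the probes above background on all 12 arrays of the product, 1585 genes were higher (16.1%) and 3391 lower (34.5%), and with no normalization 341 were higher and 7793 lower, so the higher share of the called genes went from 46.9% to 31.9% and 4.19%. The median difference of all genes tested was -0.00, -0.42 and -2.13 under these scalings. No gene called in 1 direction was called in the other under the common-probe centring, whereas 547 of the higher genes were called lower without normalization.

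The shape of the difference was unequal between detected and undetected genes. Among the 5225 genes above background on all 4 arrays, 1933 were higher in ESC (37%) and 545 lower (10.4%), with a median difference of 0.61. Another 3580 genes were above background on both adult arrays and on neither ESC array, and 2021 of them were called lower, while 188 showed the reverse and 187 of them were called higher. Genes seen in only 1 group entered the test through that group alone, which favours calls in its direction, so counts of them, also within the lists below, are descriptions and support nothing. For such genes the fold is a lower bound ("at least"), set against the lowest above-background signal of the dim group's arrays, which lay at log2 2.94 to 4.57 on the 4 arrays.

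The largest rises above background on all 4 arrays mixed pluripotency genes with genes of growing cells. Tdh, on chromosome 14, encodes threonine dehydrogenase, an enzyme on which mouse ESC depend. It stood at 11.29 and 11.47 on the ESC arrays and at 4.77 and 4.90 in the adult samples. The ESC arrays lay far above both adult values, and the difference was 6.55 ± 0.37 (adjusted p = 2.96e-05). The next were Tubb5 (5.49 ± 0.33), a beta-tubulin, Dnmt3b (5.39 ± 0.50), a DNA methyltransferase of early embryos, and Pou5f1 (5.26 ± 0.47). Hspd1, the mitochondrial chaperonin, and Eif4a1, a translation initiation helicase, both reached 5.06, and Top2a, Phlda2 and Psrc1 4.87, 4.84 and 4.83. Tubulins, Hspd1 and Eif4a1 belong to families with many near-identical copies, so their probes may read several transcripts. Foxn2 had a difference of 4.87, but this rests on ESC array 1 alone, with 13.91 against 5.36 on ESC array 2 and 5.13 and 4.39 in the adult samples. A further Foxn2 probe gave 0.15, and no other gene that was higher and above background on all 4 arrays had ESC arrays 8-fold or more apart.

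The largest falls above background on all 4 arrays reached 208-fold. Ropn1l, which encodes a sperm flagellum protein, stood at 5.06 and 5.30 on the ESC arrays and at 12.95 and 12.81 in the adult samples, a difference of -7.70 ± 0.30 (adjusted p = 1.71e-05). Spa17, also of sperm, followed at -7.42 ± 0.41, Tcte3, a testis dynein light chain, at -6.97 ± 0.48, and Gpx3, the plasma glutathione peroxidase, at -6.07 ± 0.50. Klk1b24 and Klk1b5, kallikreins of the salivary gland, stood at -6.19 ± 0.77 and -5.46 ± 0.71; their family is highly similar in sequence, and another Klk1b24 probe, below background on the ESC arrays, gave -0.65. Fabp4, Pgam2, Spink1 and Spata6 completed the 10 with -5.28 to -4.96.

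Most core pluripotency genes that could be tested were higher in ESC. Of 20 genes on the list, 15 had a named probe, 13 were tested, 12 were higher in ESC and 1 did not pass. Their median was 4.01 beside -0.00 for all genes tested, of which 24.1% were higher. Pou5f1, on chromosome 17, stood at 9.79 and 9.84 on the ESC arrays and at 4.71 and 4.39 in the adult samples (5.26 ± 0.47, adjusted p = 0.000172), with no overlap. Dppa5a, which encodes an RNA-binding protein of pluripotent cells, stood at 11.47 and 11.45 against 2.10 and 2.88, at least 335-fold higher, and Utf1, a chromatin-bound factor, at 8.41 and 8.36 against 1.99 and 2.85, at least 39.8-fold higher. The adult samples were below background for both. Zfp42 (Rex1), a zinc finger marker of naive cells, was at least 7.69-fold higher, Fbxo15, an F-box gene used as an ESC reporter, was higher by 4.56 ± 0.51, and Lin28a, which blocks let-7 processing, by 2.89 ± 0.59. Trim28 and Phc1, chromatin repressors that many tissues use, were also well detected in the adult samples, at 7.54 and 7.26 and at 7.82 and 7.82. Tdgf1 (Cripto), a Nodal co-receptor, did not pass, at 5.65 and 6.36 against 6.25 and 5.56, where the groups overlapped (adjusted p = 0.856). Sox2 lay below background on all 4 arrays and was not tested, and no probe was named here for Nanog or Esrrb. Of the 12 higher genes, 7 were below background in both adult samples, and with these at their bound the list's median was 2.94. On the day 3 and day 7 EB of the product Pou5f1 remained between 8.59 and 9.73.

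**Figure D2:**
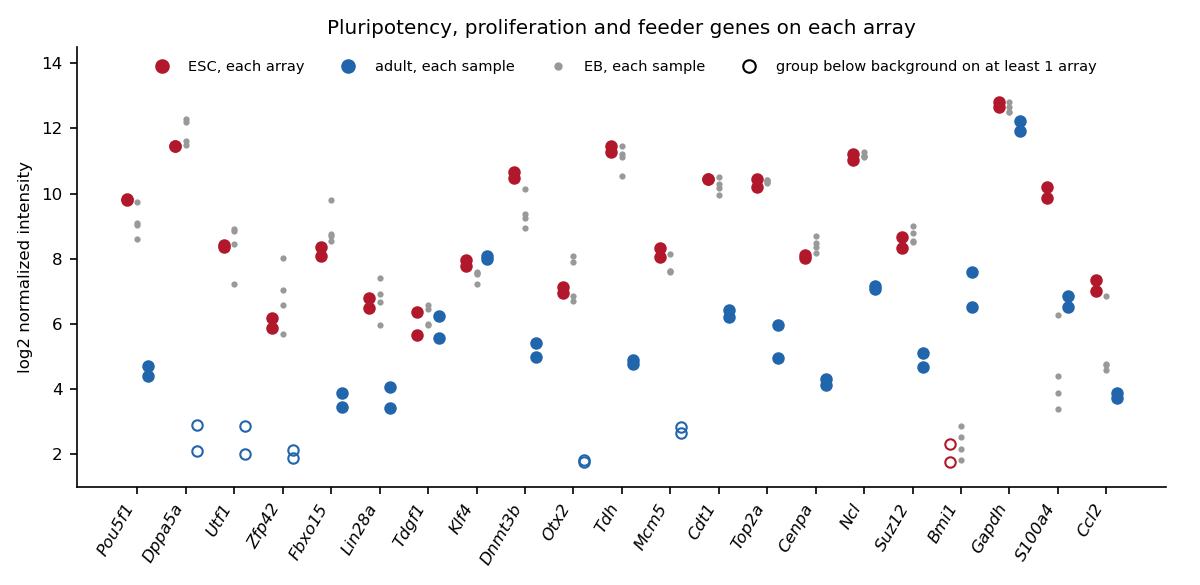
Log2 normalized intensity of pluripotency, proliferation, growth and feeder genes on each ESC array (red), in each adult sample (blue) and in each EB sample of the product (grey); open circles mark a group below background on at least 1 array. ESC arrays lie above both adult samples for all genes shown except Tdgf1, which overlaps, Klf4, which lies slightly lower without passing the test, and Bmi1, which lies lower in ESC.

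Factors of the naive state were higher as a group but not without exception. Of 7 tested genes of that list 6 were higher, with a median of 2.64, beside 24.1% of all genes tested called higher. Klf2, at 10.04 and 10.49 against 8.12 and 8.57, was higher by 1.92 ± 0.43 and Klf5 by 1.73 ± 0.38, but both gave values below 0 without normalization (-0.32 and -0.56). Klf4, another member of that family and a gene of many adult epithelia, stood at 7.96 and 7.78 against 8.09 and 8.0 (-0.17 ± 0.30, adjusted p = 0.655). Nr0b1 (Dax1), an orphan nuclear receptor, was higher by 2.64 ± 0.71 and Spp1, a secreted phosphoprotein also made in kidney and bone, by 3.03 ± 0.88.

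Genes of the next epiblast stages divided. Of 8 tested 3 were higher, with a median of 0.84 that turned to -1.35 without normalization. The 3 of 8 lies near the 37% called higher among genes above background on all 4 arrays, whose median was 0.61. This count is therefore a description only. Otx2, a homeobox gene of the formative epiblast, stood at 7.13 and 6.96 against 1.77 and 1.82, at least 15.7-fold higher, and Dnmt3a was higher by 2.23 ± 0.35. Fgf5, a marker of the primed epiblast, stood at 3.66 and 4.53 against 3.94 and 3.43, with overlap and with both ESC arrays below background (adjusted p = 0.444).

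The LIF receptor and Stat3 list had 2 higher, 1 lower and 3 not passed of 6 tested, out of 12 with a probe. The receptor gene Lifr, as well as Jak2, Socs3 and Myc, lay below background on all 4 arrays and were not tested. Stat3, the transcription factor through which LIF acts, was higher by 2.14 ± 0.31, with 7.15 and 7.49 against 5.31 and 5.05, and its 2 other probes gave 1.5 and 1.32. Il6st (gp130), the shared receptor chain, gave 0.25 (adjusted p = 0.528) and the kinase Jak1 -0.04 (adjusted p = 0.914). Jund was lower by -1.36 ± 0.40. Of 11 FGF signalling genes with a probe 4 were tested, and 4 of the 4 were higher, among them the ERK phosphatases Dusp6 (1.61 ± 0.45; -0.46 without normalization) and Dusp4 (1.37 ± 0.29; -0.76 without normalization) and the feedback inhibitor Spry2 (2.18 ± 0.66). Their list median of 1.52 fell to -0.43 without normalization, against -2.13 for all genes, and Stat3 itself gave -0.07.

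Genes of DNA methylation and Polycomb repression were divided. Of all genes tested 24.1% were called higher and 27.3% lower. Of 6 tested DNA methylation genes 4 were higher and 2 lower, with a median of 1.64 that was -0.43 without normalization. Dnmt3b stood at 10.49 and 10.67 against 5.40 and 4.97, and Uhrf1, which brings the maintenance methyltransferase to new DNA, was higher by 1.45 ± 0.31 but gave -0.85 without normalization. The methyl-CpG reader Mbd2 was lower by -1.44 ± 0.47. Of 14 tested Polycomb genes 7 were higher, 2 lower and 5 not passed, with a median of 0.94, whereas without normalization 2 were higher and 7 lower, with a median of -1.11. The catalytic subunit genes Ezh1 (0.91, adjusted p = 0.204) and Ring1 (-1.25, adjusted p = 0.0942) did not pass. Suz12 and Eed, core subunits of Polycomb complex PRC2, were higher by 3.62 ± 0.31 and 3.36 ± 0.39, and Mtf2 and Rbbp7, which bind that core, by 2.57 ± 0.41 and 2.61 ± 0.41. Bmi1, a PRC1 subunit named here after its value was seen, went the other way, with 1.77 and 2.31 on the ESC arrays, below background, and 7.60 and 6.53 in the adult samples, at least 5.70-fold lower in ESC.

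Against 24.1% of all genes tested, 13 of 17 tested genes of chromatin remodelling were higher and 0 lower (median 1.90, or -0.19 without normalization). They included Hells, a helicase needed for DNA methylation (3.69 ± 0.43), Kdm4c, a histone H3 lysine demethylase (3.53 ± 0.38), and the deacetylase Hdac2 (3.29 ± 0.29). Smarce1, a BAF subunit, was higher by 2.87 ± 0.39 at its brightest probe, but another probe above background on all 4 arrays gave -0.16.

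DNA replication genes all differed in 1 direction where tested. Of 26 listed, 24 had a named probe and 19 were tested, and 19 of the 19 were higher in ESC, with a median of 3.69 and a range of 1.18 to 5.44. Of all genes tested 24.1% were higher. Among the 19, 10 lay above background on all 4 arrays and 6 were below it in both adult samples. Genes seen only in ESC entered through the ESC arrays, which favoured that direction. Mcm7, Gins2, Pola1, Rrm1 and Rpa2 lay below background on all 4 arrays and were not tested. The Mcm2 to Mcm6 genes encode subunits of the replicative helicase. Mcm3 stood at 9.50 and 9.82 against 5.03 and 5.13 (4.58 ± 0.29) and Mcm4 at 8.59 and 8.56 against 3.84 and 4.66 (4.32 ± 0.39). Mcm5 stood at 8.34 and 8.05 against 2.66 and 2.84, at least 34.9-fold higher, and Mcm6 was at least 17.1-fold higher. Cdt1, which loads the helicase, was higher by 4.13 ± 0.30 and Rfc5, of the clamp loader, by 3.83 ± 0.33. With genes below background in adult tissue at their bound the median was 3.11, and without normalization it was 1.68 with 11 higher and 1 lower.

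E2F factors switch on replication genes through sites such as TTTGGCGC. Those letters, or GCGCCAAA on the other strand, stood within 250 bases before the start of 2 of the 18 replication promoters in the RefSeq table (11.1%), beside 0.745% of the 6983 promoters of genes tested. Both are shown because they are helicase genes that were below background in the adult samples. Both are from build GRCm38.p6, written 5′ to 3′ along the gene, with the match in capitals: chr8:75109314-75109413 on the + strand for Mcm5, and chr1:128359706-128359805 on the - strand for Mcm6. A match is a description of the letters and not a shown site, and it shares no bases with any other motif searched in these windows.
Mcm5: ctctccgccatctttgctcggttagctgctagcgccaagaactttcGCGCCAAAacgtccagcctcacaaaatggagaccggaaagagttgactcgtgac
Mcm6: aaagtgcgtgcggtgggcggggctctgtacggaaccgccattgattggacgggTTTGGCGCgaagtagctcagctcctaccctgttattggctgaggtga
A variant form, TTTCCCGC or GCGGGAAA, stood in 1 of the 18 (5.56%), that of Cdc6, beside 1.63% of promoters of genes tested.

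Mitotic genes were higher in the same way, with 17 of 20 tested higher, 0 lower and a median of 2.88 (0.67 without normalization). Of all genes tested 24.1% were higher. Top2a, the topoisomerase that untangles chromosomes, stood at 10.21 and 10.44 against 5.96 and 4.95 (4.87 ± 0.43, adjusted p = 0.000158). Cenpa, the centromeric histone, was higher by 3.86 ± 0.32, Mad2l1, of the spindle checkpoint, by 3.82 ± 0.29, and Ccnb1, cyclin B1, by 3.75 ± 0.58. Mybl2, a transcription factor of dividing cells, stood at 9.21 and 9.09 against 2.94 and 2.91, at least 67.6-fold higher. The 3 that did not pass were Ccnb2 (0.93, adjusted p = 0.0564), Cdk2 (-0.89, adjusted p = 0.0874) and Nek2 (-0.53, adjusted p = 0.457).

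Many promoters of late cell cycle genes carry CCAAT boxes, bound by the factor NF-Y, and a cell cycle homology region (CHR), TTTGAA, bound by the MuvB complexes. Among the 18 mitotic promoters in the table, CCAAT or ATTGG stood before the start of 12 (66.7%), beside 36.4% of promoters of genes tested, and TTTGAA or TTCAAA before the start of 6 (33.3%), beside 11.5%. Shown are the last 100 bases before the start of 5 called mitotic genes that hold both, with the letters of either motif in capitals. The motifs do not overlap each other in these windows. They lie, on build GRCm38.p6, at chr11:99024190-99024289 (- strand) for Top2a, chr4:118437344-118437443 (- strand) for Cdc20, chr10:69352913-69353012 (- strand) for Cdk1, chr7:127042421-127042520 (- strand) for Kif22 and chr19:37376282-37376381 (+ strand) for Kif11.
Top2a: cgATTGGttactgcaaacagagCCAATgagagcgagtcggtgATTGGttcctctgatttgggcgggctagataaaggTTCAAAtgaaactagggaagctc
Cdc20: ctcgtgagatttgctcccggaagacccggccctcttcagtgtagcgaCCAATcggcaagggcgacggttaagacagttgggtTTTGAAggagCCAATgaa
Cdk1: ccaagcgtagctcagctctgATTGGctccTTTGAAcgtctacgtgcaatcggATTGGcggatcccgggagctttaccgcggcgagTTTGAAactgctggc
Kif22: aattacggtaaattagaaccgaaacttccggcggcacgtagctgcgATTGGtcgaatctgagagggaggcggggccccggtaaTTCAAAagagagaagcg
Kif11: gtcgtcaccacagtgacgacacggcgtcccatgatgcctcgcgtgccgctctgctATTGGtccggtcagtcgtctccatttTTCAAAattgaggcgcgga
The ESC minus adult differences of these 5 were 4.87, 3.19, 2.64, 2.35 and 2.02.

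Targets of p53 were higher for 6 of 9 tested (median 1.84, or -0.33 without normalization), beside 24.1% of all genes tested. Ccng1, cyclin G1, stood at 9.73 and 9.52 against 5.33 and 4.65 (4.64 ± 0.36) and Gadd45a was higher by 2.65 ± 0.37. Cdkn1a (p21), at 5.32 and 5.40 against 4.06 and 5.68, did not pass (adjusted p = 0.521), and its groups overlapped. Of 11 tested stress genes 7 were higher, with a median of 2.51, and those with the largest differences were antioxidant genes: Txnrd1 (3.40 ± 0.34), Hmox1 (2.68 ± 0.35), Gclm (2.66 ± 0.35) and Gclc (2.60 ± 0.33). Atf4 itself gave 0.88 (adjusted p = 0.102).

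The machinery of protein synthesis was higher in ESC. All 38 tested ribosomal protein genes lay above background on all 4 arrays, and 26 were higher and 0 lower. Their median was 1.23 beside 0.61 for all genes above background on all 4 arrays, of which 37% were higher. Without normalization 2 were higher and 11 lower. Rpl3 stood at 12.19 and 11.90 against 8.99 and 8.41 (3.35 ± 0.34), and Rpl27, Rps7 and Rpl8 were higher by 3.05, 2.87 and 2.74, whereas Rpl11 (0.04) and Rpl32 (0.06) did not pass. Ribosomal protein genes have many processed copies that probes may not tell apart. Of 13 tested genes of ribosome biogenesis 12 were higher (median 2.67), led by nucleolin, Ncl, at 11.22 and 11.03 against 7.07 and 7.17 (4.0 ± 0.28), and followed by nucleostemin, Gnl3 (3.72 ± 0.39), fibrillarin, Fbl (3.44 ± 0.37), and Nop56 (2.67 ± 0.32). Translation factors had 12 higher and 1 lower of 17, with Eif4a1 at 9.97 and 9.76 against 4.26 and 5.36, and Eif3d higher by 4.35 ± 0.43. Without normalization the medians of the ribosomal protein and translation factor lists were -0.59 and -0.64, still above the -2.13 of all genes, and that of ribosome biogenesis 0.36.

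Splicing factors, chaperones and proteasome subunits moved in the same direction. Above background on all 4 arrays were 26 of 28 splicing, 18 of 21 chaperone and 26 of 27 proteasome genes. Among all genes above background on these arrays 37% were called higher, with a median of 0.61. Splicing genes were higher for 23 of 28 tested (median 1.91), among them Hnrnpc (3.76 ± 0.39), Hnrnpl (3.28 ± 0.63) and Snrpb (3.10 ± 0.29), which encode RNA-binding proteins of pre-mRNA. Chaperone genes were higher for 15 of 21 (median 1.95), among them Cct6a (3.81 ± 0.36) and Cct7 (3.58 ± 0.51) of the cytosolic chaperonin and the co-chaperone Stip1 (3.61 ± 0.39). Hspe1, the partner of Hspd1 in the mitochondrial chaperonin and named here after its value was seen, was the 1 lower gene, at 8.63 and 8.33 against 9.65 and 10.25 (-1.47 ± 0.41). Proteasome genes were higher for 20 of 27 and lower for 1 (median 1.48), led by Psmd14 (3.55 ± 0.28) and Psmc1 (3.05 ± 0.29). Without normalization these 3 medians were -0.30, -0.10 and -0.77.

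Metabolic genes separated by pathway. Of all genes tested 24.1% were higher, which is the share to set beside the counts that follow. Of 18 tested genes of threonine, serine and one-carbon metabolism 17 were higher (median 3.11; 0.88 without normalization). Beside Tdh they included Gcsh, of the glycine cleavage system (3.15 ± 0.33), and Psat1, of serine synthesis (3.07 ± 0.36). Of 5 tested amino acid carriers 4 were higher, and Slc7a3, a cationic amino acid carrier, stood at 7.29 and 7.06 against 2.10 and 1.77, at least 17.2-fold higher.

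Glycolysis genes were higher for 11 of 17 and lower for 0 (median 1.30, or -0.63 without normalization), beside 24.1% of all genes tested called higher. Pgk1 stood at 9.68 and 10.05 against 6.10 and 5.93 (3.85 ± 0.31), and Aldoa and Hk2 were higher by 3.96 ± 0.48 and 3.55 ± 0.28, whereas Gapdh, at 12.66 and 12.81 against 11.91 and 12.23, did not pass (0.67 ± 0.30, adjusted p = 0.0975). The respiratory chain and ATP synthase genes lay near the median of all genes, with 7 higher, 2 lower and 25 not passed of 34 tested and a median of 0.11. The higher ones included the ATP synthase gene Atp5a1 (2.49 ± 0.33) and Ndufs1 of complex I (2.21 ± 0.36), and the lower ones were Ndufa2 (-0.88) and Cox6a1 (-1.04). Under the common-probe centring that list had 5 higher and 7 lower, with a median of -0.40 against -0.42 for all genes.

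Markers of fibroblasts were present in the ESC sample, which was grown on feeders. Of 25 tested feeder genes 8 were higher, 1 was lower and 16 did not pass, with a median of 1.35; 8 of 25 lies near the share of all genes tested, 24.1%, and without normalization 3 were higher and 9 lower, with a median of -0.77. The list's median level was 6.96 in ESC and 5.96 and 6.33 in the adult samples. S100a4, a calcium-binding protein of fibroblasts, stood at 10.20 and 9.86 against 6.52 and 6.86 (3.34 ± 0.88), and the chemokine Ccl2 was higher by 3.40 ± 0.73. Col5a1 was higher by 3.37 ± 0.49 at its brightest probe, while another probe lay below background in both groups. Of the defining markers Col1a2 was at least 14.0-fold higher, Col3a1, Thy1 and Pdgfra did not pass (-1.57, 1.57 and 0.12), and Col1a1 was above background on only 1 ESC array and was not tested. In the 4 EB samples S100a4 stood at 3.37 to 6.26, Ccl2 at 4.57 to 6.84 and Col5a1 at 4.56 to 5.94. Mmp2, of the same list, stood at 4.99 to 6.48 in the EB samples, against 5.23 and 5.97 on the ESC arrays. EB also differ from ESC in medium and in differentiation, and a feeder origin of these levels was not tested. Prl2c3, a prolactin-family gene outside that list, stood at 9.37 and 9.25 against 2.76 and 2.36, at least 75.3-fold higher in ESC. Its SE was large (6.75 ± 2.2, adjusted p = 0.0365), with 2.47 to 8.72 in the EB samples. The part of feeder RNA was not tested for any of the ESC differences.

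Basement membrane genes, made by both fibroblasts and early embryonic cells, were higher for 5 of 9 tested (median 1.80, or -0.49 without normalization). Of all genes tested 24.1% were higher, and of those above background on all 4 arrays 37%, with a median of 0.61. Nid2 and Nid1, which link laminin to collagen IV, were higher by 4.85 ± 0.36 and 4.18 ± 0.48, and Lamb1 was at least 7.56-fold higher. Among 12 tested imprinted genes 5 were higher and 1 lower (median 0.77), whereas without normalization 2 were higher and 6 lower (median -1.31). The 5 of 12 and the median of 0.77 lie near the values of genes above background on all 4 arrays, so the count is a description only. Phlda2, which restrains placental growth, stood at 9.04 and 8.88 against 4.11 and 4.15 (4.84 ± 0.45), Igf2r was higher by 1.95 ± 0.45 but gave -0.14 without normalization, and Dlk1, at 6.69 and 6.60 against 1.96 and 2.22, was at least 11.9-fold higher.

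The adult RNA carried strong signals of male germ cells. Of 24 tested sperm and testis genes 22 were lower in ESC, with a median of -4.30, or -3.50 with genes below background in ESC at their bound. Of the 24, 20 were below background on both ESC arrays, and 27.3% of all genes tested were called lower. The filter favoured that direction, so the count is a description only. Prm2, a protamine that packs sperm DNA, stood at 12.12 and 12.91 in the adult samples and at 1.77 and 2.55 on the ESC arrays, at least 249-fold lower in ESC. Tnp1, a transition protein that precedes the protamines, and Smcp, of the sperm mitochondrial capsule, were at least 164-fold and 197-fold lower. Odf2, of the sperm tail fibres, lay above background on all 4 arrays and was lower by -2.28 ± 0.33, as was Tekt1, a cilium and flagellum protein (-4.28 ± 0.60).

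Genes of the male accessory glands were lower in ESC for 12 of 12 tested, with a median of -5.44, or -3.32 with bounds, beside -3.50 with bounds for sperm and testis. Of the 12, 11 were below background on both ESC arrays. The filter favoured calls in the lower direction, so the count of 12 is a description only. Svs4, a seminal vesicle secretory protein, stood at 10.84 and 10.56 in the adult samples and at 2.33 and 2.02 on the ESC arrays, at least 70.6-fold lower, and Svs5 and Svs1 were at least 21.0-fold and 19.7-fold lower. Of the defining markers Svs2 and Lcn5, an epididymal lipocalin, were at least 3.58-fold and 7.96-fold lower. Spink1, a secreted protease inhibitor, stood above background in both groups (-5.11 ± 1.54) and varied among the EB samples from 5.25 to 11.20.

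Promoters of these secreted proteins often held TATAAA, the letters of a TATA box, and few CpG. TATAAA or TTTATA stood within 250 bases before the start of 6 of 10 accessory gland promoters in the table (60%), beside 8.43% of promoters of genes tested, and their median was 2 CpG in 300 bases, beside 19. Shown are the last 100 bases before the start of 4 of them, with the match in capitals, on build GRCm38.p6 at chr2:164278308-164278407 (- strand) for Svs4, chr2:164332665-164332764 (+ strand) for Svs5, chr17:40319208-40319307 (- strand) for Crisp1 and chr2:25657852-25657951 (+ strand) for Lcn5. The Svs genes among the 6 lie close together on chromosome 2 and are related in sequence, so their promoters are not independent. The letters overlap no other motif searched in these windows.
Svs4: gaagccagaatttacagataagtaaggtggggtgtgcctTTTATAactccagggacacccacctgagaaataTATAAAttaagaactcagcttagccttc
Svs5: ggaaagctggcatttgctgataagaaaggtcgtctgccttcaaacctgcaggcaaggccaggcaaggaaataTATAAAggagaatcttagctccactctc
Crisp1: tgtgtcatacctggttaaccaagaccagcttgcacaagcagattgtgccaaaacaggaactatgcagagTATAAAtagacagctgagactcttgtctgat
Lcn5: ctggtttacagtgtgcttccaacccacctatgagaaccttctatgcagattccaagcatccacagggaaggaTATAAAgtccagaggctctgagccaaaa
The match nearest the listed start began 28 bases before it in Svs4, Svs5 and Lcn5 and 31 bases before it in Crisp1. By contrast the cAMP response element TGACGTCA stood in 1 of 19 sperm and testis promoters (5.26%), beside 2.58% of promoters of genes tested.

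Most tested lung and liver genes were lower in ESC, and most were marked below background on both ESC arrays, which was so for 13 of 14 lung genes and 22 of 22 liver genes. Of 14 tested lung and airway genes 11 were lower (median -4.09; -2.38 with bounds). Scgb1a1, the club cell secretoglobin, stood at 12.52 and 12.71 in the adult samples and at 1.77 and 2.12 on the ESC arrays, at least 266-fold lower, and Sftpc, surfactant protein C, was at least 97.3-fold lower. Of 35 liver plasma protein genes with a probe, 22 were tested and 19 called lower (median -3.27; -1.42 with bounds). All 22 entered the test through the adult arrays alone, so the filter favoured that direction and the count is a description only. Ttr stood at 8.83 and 9.55 against 3.00 and 1.77, at least 24.8-fold lower, and Serpina1b and the major urinary protein gene Mup1, both from families of near-identical copies, were at least 16.4-fold and 16.0-fold lower. Alb, the defining liver marker, stood only at 4.67 and 5.32 in the adult samples, and its bound was at least 1.35-fold. In the 4 EB samples Ttr ranged from 2.80 to 8.97.

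Cytochrome P450 genes were lower for 9 of 11 tested (median -4.14; -1.99 with bounds), among them Cyp2f2, a lung and liver enzyme, at 10.12 and 9.87 against 2.29 and 3.53, at least 43.2-fold lower. The highest bounds also held Fxyd2, a regulator of the kidney sodium pump (at least 169-fold lower), and Fbp1, a gluconeogenic enzyme of liver and kidney (at least 173-fold lower). Of 14 tested kidney genes 11 were lower and 2 higher, the 2 being Spp1 and Nphs1, and the defining markers Umod and Kap were at least 4.92-fold and 3.67-fold lower. Of 10 tested pancreas and gut genes 6 were lower and 1 higher. The higher one, Clps, stood at 4.84 and 4.77 against 3.76 and 3.81 although both ESC arrays were marked below background for it. The defining markers Cela1 and Ins2 stood at 3.25 to 3.53 in the adult samples, near the lowest above-background signal. Below background on both ESC arrays were 8 of 11 P450, 10 of 14 kidney and 8 of 10 pancreas and gut genes. Counts for these lists are therefore descriptions only, beside 27.3% of all genes tested called lower.

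**Figure D3:**
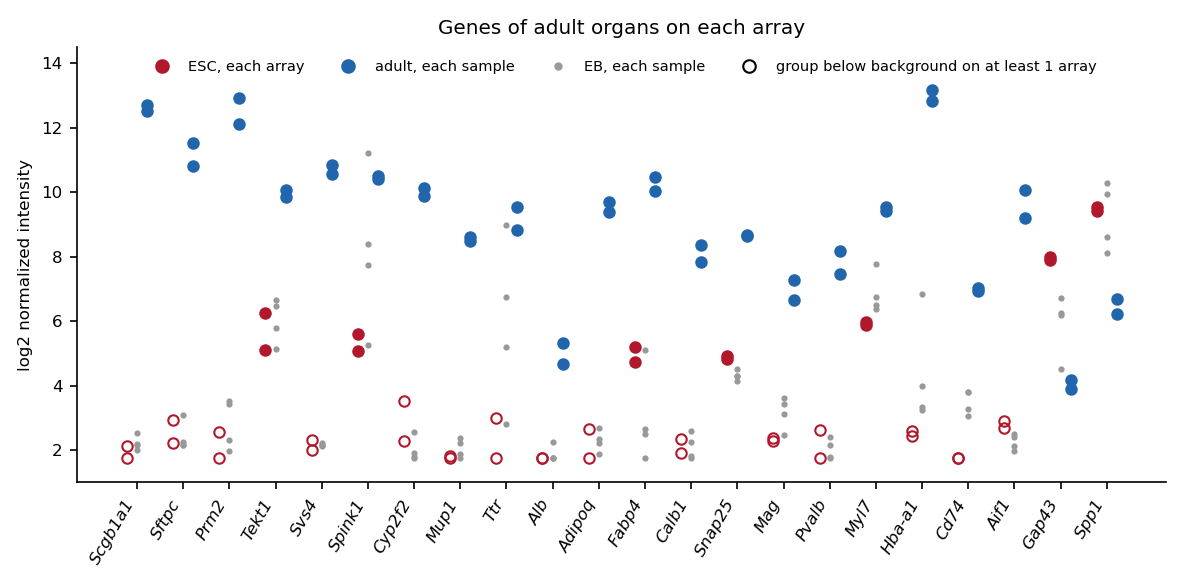
Log2 normalized intensity of genes of adult organs on each ESC array (red), in each adult sample (blue) and in each EB sample of the product (grey); open circles mark a group below background on at least 1 array. The adult samples lie above both ESC arrays for all genes shown except Gap43 and Spp1, which lie higher in ESC.

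Genes of brain and muscle were lower in ESC at more modest levels. Of 19 tested neuron and synapse genes 9 were lower and 1 higher (median -1.25, or 0.00 with genes below background in ESC at their bound). Snap25, of the synaptic release machinery, stood at 8.63 and 8.68 in the adult samples and at 4.84 and 4.91 on the ESC arrays (-3.78 ± 0.29, adjusted p = 8.81e-05), and Calb1, a calcium buffer of neurons and kidney tubules, was at least 11.6-fold lower. Of 13 tested glia and myelin genes 9 were lower and 1 higher, and the myelin gene Mag, named here after its value was seen, was at least 5.31-fold lower, while Gfap did not pass (-0.41, adjusted p = 0.322) and Mbp lay below background on all 4 arrays. Skeletal muscle genes were lower for 10 of 15 and higher for 1, Tnnt1, a troponin of slow fibres (1.96 ± 0.58, below background in the adult samples), and heart muscle genes for 8 of 10. Pvalb was at least 9.60-fold lower, and Myl7, an atrial myosin light chain, stood at 9.40 and 9.54 against 5.96 and 5.88 (-3.54 ± 0.43). Acta1, the actin of skeletal muscle, was at least 2.36-fold lower, and Mylpf did not pass (-0.07, adjusted p = 0.907). Below background on both ESC arrays were 12 of 19 neuron, 9 of 13 glia, 11 of 15 skeletal and 8 of 10 heart muscle genes. These list counts are therefore descriptions only, beside 27.3% of all genes tested called lower.

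Among immune, fat, skin and vessel genes, more were lower in ESC than higher, while the 3 tested erythroid genes had no common direction, with 1 lower, 1 higher and 1 not passed. Hba-a1, alpha globin, stood at 13.18 and 12.84 in the adult samples and at 2.43 and 2.60 on the ESC arrays, at least 351-fold lower. A probe named for Hbb-y gave at least 430-fold, but 2 more probes with that name gave -3.10 and 0.60, and beta-like globins are similar in sequence. Of 16 tested macrophage and myeloid genes 13 were lower, led by Aif1 (at least 33.7-fold), and of 15 lymphocyte genes 11 were lower. Of 12 antigen presentation genes 6 were lower and 0 higher; Cd74, the class II invariant chain, stood at 6.93 and 7.02 against 1.77 and 1.77, at least 5.34-fold lower, while B2m, the light chain of class I, did not pass (-0.71, adjusted p = 0.267). Adipocyte genes were lower for 9 of 13, among them Adipoq, the fat hormone adiponectin, at 9.37 and 9.68 against 1.77 and 2.67, at least 31.3-fold lower. Keratinocyte genes were lower for 5 of 9 and endothelial genes for 6 of 9, with Krt5 and Ramp2 at least 9.32-fold and 15.3-fold lower. The defining endothelial markers Pecam1 and Cdh5 lay below background on all 4 arrays and were not tested. So did the defining markers Krt10 of skin, Cd3e and Ptprc of lymphocytes and Csf1r of myeloid cells. Those named Cd79a and Cd68 were higher in ESC (0.97 and 1.13), as given below. Most tested members were below background on both ESC arrays, among them 14 of 16 myeloid, 13 of 15 lymphocyte and 8 of 9 endothelial genes. Of all genes tested 27.3% were lower, and of the 3580 seen on the adult arrays alone 2021 were. The filter favoured that direction, so these list counts are descriptions only.

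Some members of the adult lists were higher in ESC. Gap43, a growth cone protein of neurons, stood at 8.0 and 7.89 on the ESC arrays and at 4.19 and 3.91 in the adult samples (3.9 ± 0.65), with 4.52 to 6.72 in the EB samples. Apoe, made by glia and macrophages, was higher by 1.57 ± 0.43, Cd68 by 1.13 ± 0.28, Car1 by 1.71 ± 0.46, Cd79a by 0.97 ± 0.32 and Sfn by 1.14 ± 0.38. These 5 gave values below 0 without normalization (-0.69, -1.05, -0.25, -1.24 and -1.17).

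Early lineage lists had no common direction, beside 24.1% of all genes tested called higher and 27.3% lower. Of 8 tested germline genes 3 were higher and 2 lower. Kit and Ifitm1 were higher by 1.82 ± 0.28 and 1.43 ± 0.37 but gave -0.07 and -0.70 without normalization. Prdm1 (Blimp1), which specifies germ cells in the embryo, was at least 5.34-fold higher, whereas the germ cell helicase Ddx4, at 4.74 and 4.36 against 7.18 and 6.82, was lower by -2.45 ± 0.54. Of 10 tested endoderm genes 3 were higher, all of them basement membrane genes, and 2 were lower, the plasma protein genes Ttr and Apoa1. Rhox5, a homeobox gene of embryo and testis, was higher by 2.52 ± 0.66, and the other 4 tested genes of the Rhox and trophectoderm list did not pass.

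Genes below background in ESC replicate 1 were often detectable in ESC replicate 2 on the other product. Of the 2375 genes higher in ESC, 2355 were above background on both arrays of replicate 2 (99.2%), and so were 186 of the 187 with adult tissue below background (99.5%), beside 87.1% of all genes tested. Of the 5225 genes above background on all 4 arrays, whatever their direction, 5173 were (99%). The share for higher genes thus says nothing about their direction. Of the 2021 genes called lower with ESC replicate 1 below background, 1051 were above background in replicate 2 (52%). Among all tested list members, whatever their call, 3 of 12 accessory gland genes and 9 of 22 liver genes were above background in replicate 2. So were 15 of 24 sperm and testis genes and 16 of 19 neuron genes. Prm2, Scgb1a1 and the Hbb-y probe were not above background there, whereas Tnp1, Smcp, Fbp1, Fxyd2 and Hba-a1 were. Levels were not compared across products, so a gene called lower here is not shown to be silent in ESC.

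Promoters of genes lower in ESC held fewer CpG, which was less marked among genes detected in both groups. Of the 9840 genes, 6983 had a RefSeq promoter of 300 bases. The median was 21 CpG for genes higher in ESC and 12 for genes lower, with 20 for those that did not pass, and 86.9%, 55.1% and 77.3% of these promoters held at least 10. Among genes above background on all 4 arrays the medians were 22 for higher and 21 for lower genes, with 88.3% and 81.6% at 10 or more. Medians by list were 4 for liver, 2.5 for kidney and 7 for sperm and testis, against 19.5 for neuron and synapse genes, and were 24.5 for mitotic genes and 11 for core pluripotency genes.

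**Figure D4:**
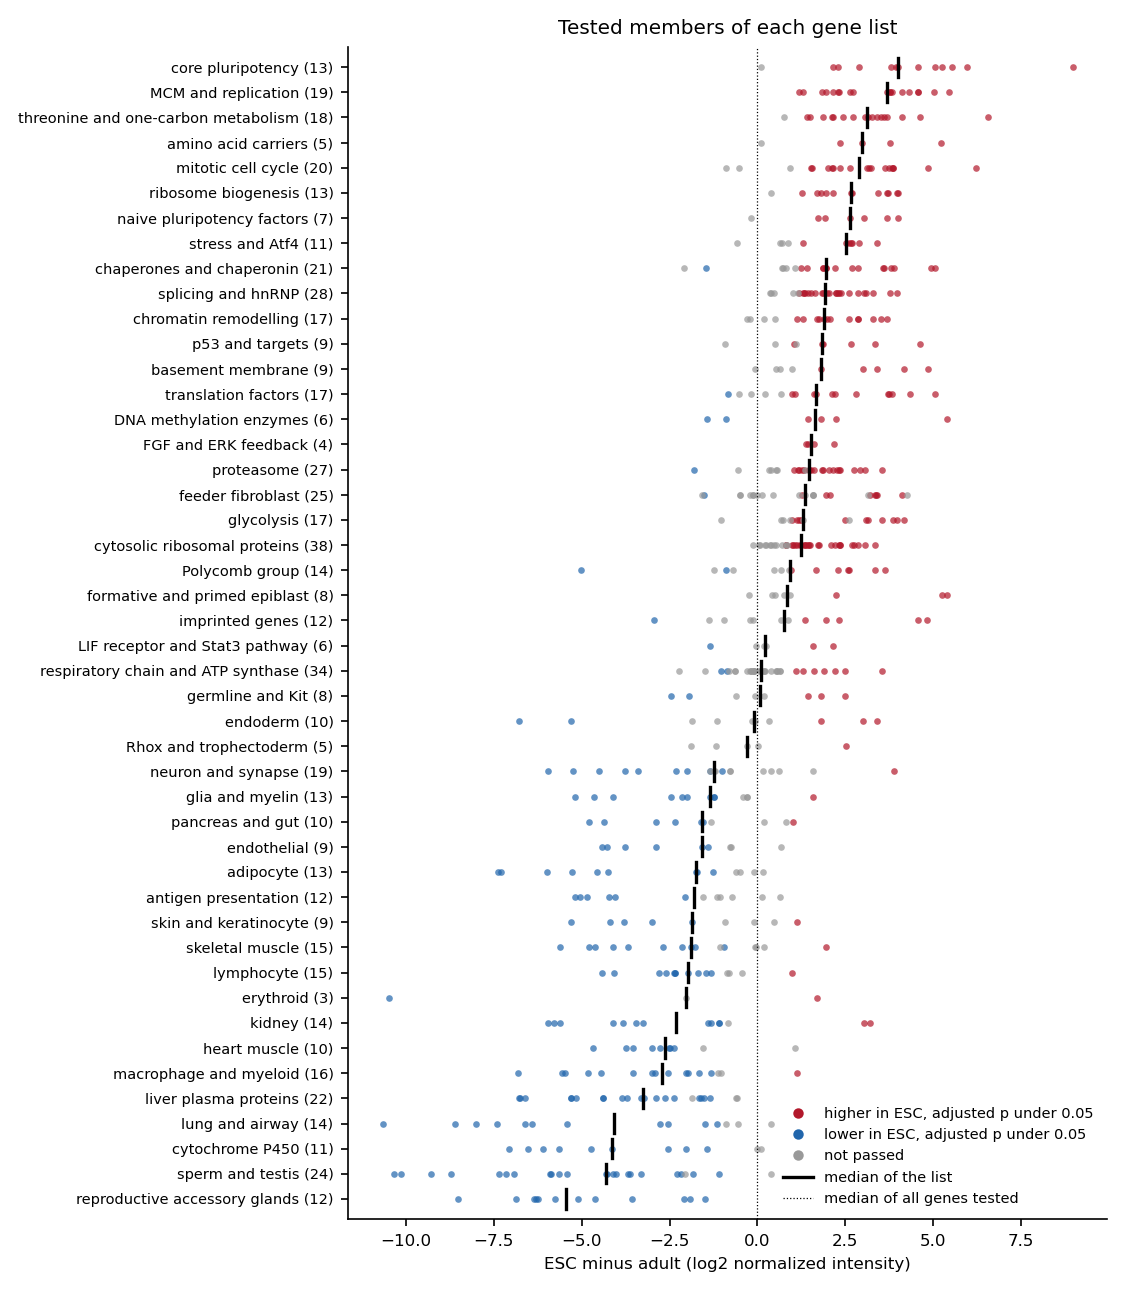
ESC minus adult difference (log2 normalized intensity) of each tested member of the 46 gene lists, with the number of tested members in parentheses; points are coloured by the test, black bars mark list medians and the dotted line the median of all genes tested. Medians of fitted values run from -5.44 for reproductive accessory glands to 4.01 for core pluripotency; with undetected genes at their bound they run from -3.50 for sperm and testis to 3.11 for replication.

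The sign of many list medians depended on the scaling. Core pluripotency, replication, one-carbon metabolism, amino acid carriers, mitosis, ribosome biogenesis, naive factors and stress genes kept medians above 0 under quantile normalization, common-probe centring and no normalization. The medians of 18 lists, from chaperones (1.95) to germline genes (0.06), fell below 0 without normalization. Of these, 17 stayed above the median of all genes under that scaling, -2.13, and germline genes gave -2.17. The adult organ lists had medians below that of all genes under the 3 scalings. Actb, often used as a reference, was higher by 1.47 ± 0.35 under quantile normalization and gave -0.51 without normalization.

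**Figure D5:**
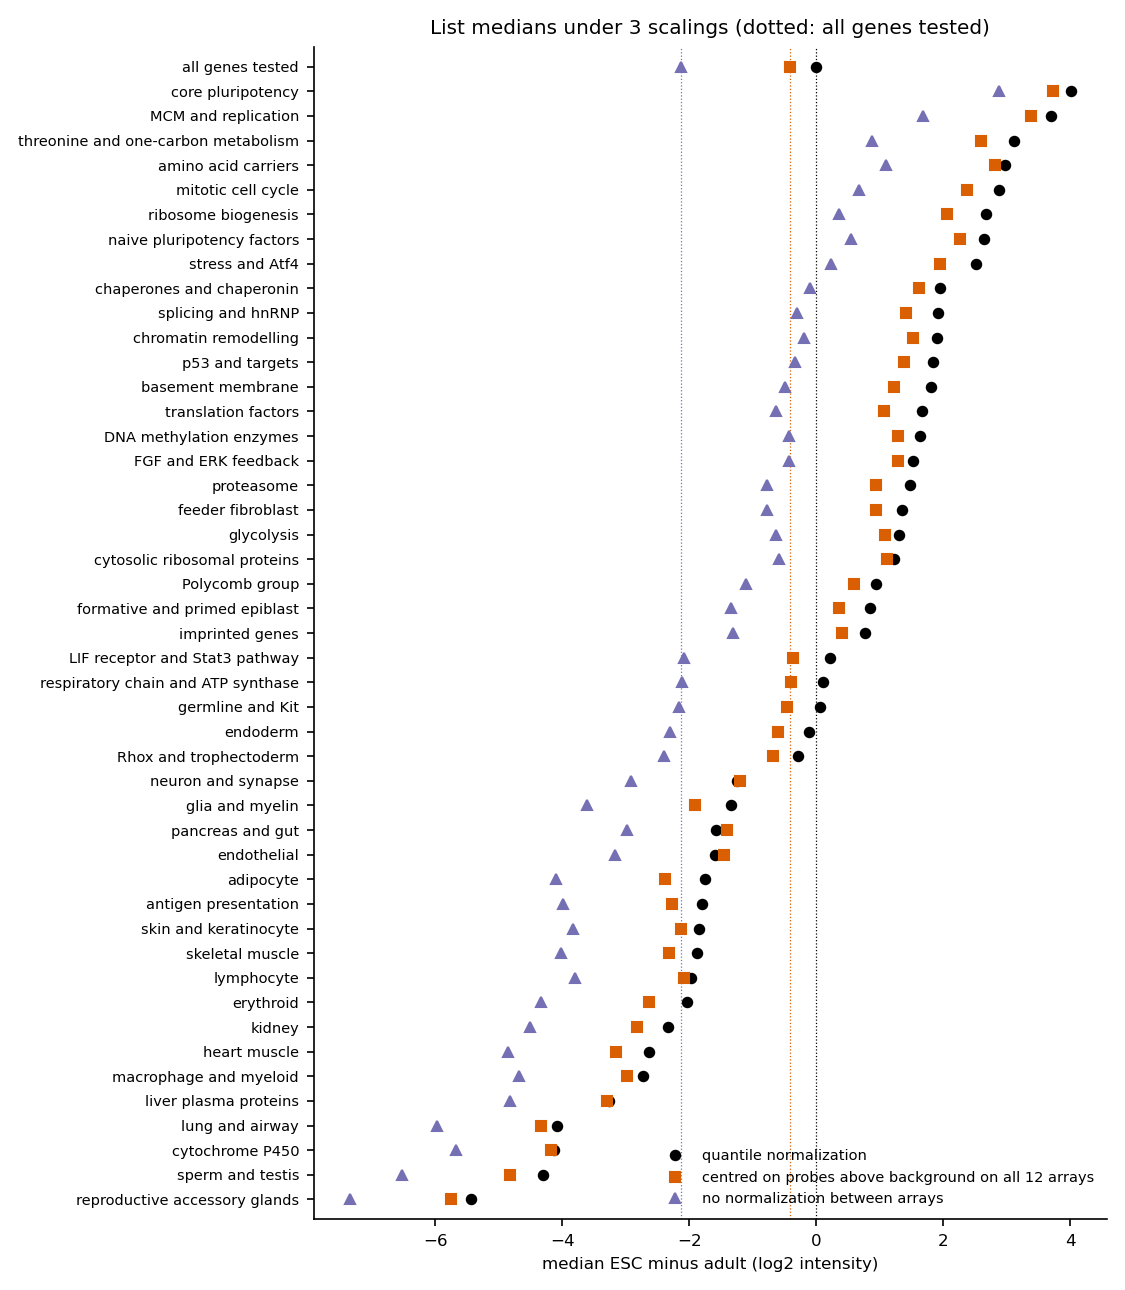
Median ESC minus adult difference (log2 intensity) of each list and of all genes tested under quantile normalization (black), centring on probes above background on all 12 arrays (orange) and no normalization (violet), with dotted lines at the median of all genes tested (-0.00, -0.42 and -2.13). Medians of 18 lists lie above 0 in black and below 0 in violet.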

How the data were processed

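RNA was amplified in a single round, labelled with Cy5 and hybridised to 1-colour arrays, per the labels' protocols. The deposited scanner exports hold 1 intensity per probe with a quality mark, made by the authors; per the file headers the analysis software was version 4.1.0.29054. The deposited intensity column holds values below 0, so background had been subtracted before deposit, and normexp on separate signal columns was not the first choice. Arrays of the product were quantile normalized, floored at log2 1.77 (the median normalized negative control) and averaged per sample. Marked spots (29 to 89 on the 4 arrays) were set aside. Each gene was read at its brightest probe. The deposited value table of intensities equals the exports' normalized intensity for ESC and EB; its adult columns differ from them (Spearman 0.973 and 0.989) and it was used as an alternative.

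limma 3.58.1 in R 4.3.3 (lmFit, eBayes) was fitted to 7 samples (1 ESC, 2 adult, 4 EB), with Benjamini-Hochberg adjustment over 9840 genes. With 1 ESC sample, its spread is taken to be that of the other groups. The labels do not say that samples came from separate cultures or animals, so p-values reflect only how these samples vary, which may be technical, and the number of arrays limits the precision. A fold against a group below background is a bound: the bright group's mean over the mean of the dim group, where each dim array enters with its lowest signal above background or the probe's own, whichever is higher.

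The text names the 10 largest differences each way among genes above background on all 4 arrays, the 8 highest bounds each way, up to 4 called members of each of 46 lists and fixed markers. Other list members were added with their values known. The members and lists were chosen with earlier results of these data known. Of 1011 list genes 890 had a named probe and 645 were tested. On simulated data with the same groups, 85% of genes changed by log2 2 were called, 99% of those changed by 4 and 0.145% of unchanged ones. The simulation changed few genes, drew independent noise and gave the ESC sample the spread of the other groups. It held no brightness gap between groups, so these rates are not error rates for the data. Alternatives covered normalization, floor, filter, probes, samples and background correction. Promoters are RefSeq's, build GRCm38.p6, from 250 bases before to 50 after the start, the first listed per gene.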

Additional observations from a re-analysis of the deposited data

How the results depend on the processing

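The number of genes called each way depended on the scaling between arrays. With no normalization 341 genes were higher in ESC and 7793 lower, against 2375 and 2688 after quantile normalization. Keeping only genes above background on all 4 arrays gave 625 lower, and the deposited value table gave 1364 higher. A pair of alternatives chosen after seeing the data kept that filter: with common-probe centring 1286 were higher and 1123 lower, and with no normalization 175 were higher. Leaving out each adult sample gave 1819 to 1970 higher and 2018 to 2252 lower; the ESC sample cannot be left out. The other alternatives run kept both counts within 1.5 times. Of the 199 genes named by the rule, 187 kept direction and call under common-probe centring, 11 lost the call and 1 gained it. Without normalization 145 kept both and 23 turned: Actb -0.51, Apoe -0.69, Atp5c1 -0.71, Car1 -0.25, Cd68 -1.05, Cd79a -1.24, Col4a1 -0.49, Dusp4 -0.76, Dusp6 -0.46, Grb2 -0.40, Ifitm1 -0.70, Igf2r -0.14, Kit -0.07, Klf2 -0.32, Klf5 -0.56, Pmaip1 -0.33, Sdhc -0.26, Sfn -1.17, Snrpn -0.98, Socs2 -0.61, Stat3 -0.07, Trp53inp1 -1.24 and Uhrf1 -0.85. All of these but Grb2 gave the same values, and turned, with the filter on all 4 arrays added. Smarce1 gave -0.16 with ESC and adult samples alone and with each array as a sample, where another of its probes was the brightest. Without adult sample 1 or 2, 29 and 31 of the 199 lost the call. No paired analysis was possible because the labels link no ESC sample to an adult sample. Depth of signal limits the low end: genes below background in ESC have only bounds, and the export set of the adult arrays cannot be told apart from the group.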

Other observations

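The highest bounds held genes outside the lists. Ooep, an oocyte and early embryo gene that lies on chromosome 9 with Dppa5a, was at least 47.1-fold higher in ESC, Upp1, uridine phosphorylase, at least 36.0-fold, and the zinc finger gene Zfp979 at least 27.5-fold. The labels name 2 adult samples, and both lay below background for these 3 genes.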
